A study of Mus musculus with 5 samples.

Results

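The Kruppel-like factors Klf2, Klf3, Klf4, Klf6, Klf10 and Klf13 were followed through the bone marrow (BM) of mice treated with cyclophosphamide (CTX). These 6 genes were taken by symbol from the 31053 genes of the deposited single-cell count matrices. Each one occurred once, under ENSMUSG00000055148 (Klf2), ENSMUSG00000029178 (Klf3), ENSMUSG00000003032 (Klf4), ENSMUSG00000000078 (Klf6), ENSMUSG00000037465 (Klf10) and ENSMUSG00000052040 (Klf13). The study examined BALB/c mice aged 4 to 8 weeks that were left untreated (naive) or received 150 mg/kg of CTX intraperitoneally. Whole BM was taken from naive mice and from treated ones 2 and 7 days later (the D2 CTX and D7 CTX libraries), with the cells of 3 mice pooled in equal numbers into 1 library per condition after removal of dead cells. A second pair of libraries, naive sorted and CTX sorted, held CD11b+Ly6Chi monocytes isolated from BM, with the number of mice in each pool not stated. The sample labels give no day for the CTX sorted library, which the methods of the study place at D7.

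With 1 pooled library per condition, condition and library cannot be told apart, and no test between conditions was possible. Each level below is in CPM, the unique molecular identifiers (UMIs) of a gene as a share of all UMIs of the same cells, scaled to 1000000. Each ratio is a log2 ratio of CPM after adding 1 CPM. The 95% interval in brackets is that of the ratio without the added CPM and covers counting error only. Where a level is near zero, the printed ratio therefore lies off the middle of its interval. The libraries kept 7104 naive, 6126 D2 CTX and 8290 D7 CTX cells of whole BM, with 46065849, 33940059 and 67921924 UMIs, and 1891 naive and 2564 CTX sorted cells, with 22279758 and 28622354 UMIs. Between 15 and 43 barcodes per library also occurred in another library. Cells were placed into classes by summed marker genes, none of which was a Kruppel-like factor, and cells that carried markers of several lineages were left out.

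Kruppel-like factors are zinc finger transcription factors that bind GC-rich and CACCC-containing DNA, and their outer parts recruit activators or repressors. Klf2 keeps lymphocytes quiescent and is required for their S1pr1 expression, and it restrains inflammatory activation of myeloid cells. Klf4 is required for the differentiation of inflammatory monocytes. Klf3 is a repressor that recruits CtBP proteins and is a target of Klf1 in erythroid cells. Klf6 promotes inflammatory gene expression in myeloid cells, Klf10 was described as a TGF-beta-inducible early gene, and Klf13 is known as a late activator of the chemokine gene Ccl5 in T cells.

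The promoters of Klf2, Klf4 and Klf6 are printed first, because the monocyte results turn on these 3 members and because all of them are known as primary response genes of stimulated cells. Sequences are the 250 bases before the RefSeq start in GRCm38.p6, read 5′ to 3′ on the gene's strand. Capitals mark matches, on either strand, to the GC box GGGCGG, to CACCC, to the TGACG core of cyclic AMP response elements, to the CCAAT box and to the MEF2 site. Klf2 lies at chr8:72319033-72321656 on the plus strand, Klf4 at chr4:55527143-55532466 on the minus strand and Klf6 at chr13:5861482-5870394 on the plus strand in the mm10 annotation, and the windows cover chr8:72318812-72319061, chr4:55532476-55532725 and chr13:5861239-5861488.
Klf2: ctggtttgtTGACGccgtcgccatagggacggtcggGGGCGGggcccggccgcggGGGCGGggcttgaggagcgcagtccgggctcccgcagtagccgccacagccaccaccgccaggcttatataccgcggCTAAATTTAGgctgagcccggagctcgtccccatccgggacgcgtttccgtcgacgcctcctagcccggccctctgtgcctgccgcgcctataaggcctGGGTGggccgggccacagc
Klf4: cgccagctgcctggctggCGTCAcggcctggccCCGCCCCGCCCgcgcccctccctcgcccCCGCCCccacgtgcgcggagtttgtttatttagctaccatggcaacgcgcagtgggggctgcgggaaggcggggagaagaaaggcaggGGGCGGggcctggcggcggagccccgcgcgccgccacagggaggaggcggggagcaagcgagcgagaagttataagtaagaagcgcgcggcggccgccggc
Klf6: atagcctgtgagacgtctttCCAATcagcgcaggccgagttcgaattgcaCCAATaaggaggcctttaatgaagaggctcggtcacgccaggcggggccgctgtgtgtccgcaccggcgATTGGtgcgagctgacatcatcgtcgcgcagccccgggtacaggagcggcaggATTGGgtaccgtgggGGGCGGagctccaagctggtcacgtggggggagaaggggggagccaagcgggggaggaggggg

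The Klf2 window held 2 GC boxes, 1 CACCC, 1 TGACG and the MEF2 site, which lay 118 to 109 bases before the start. The Klf4 window held 4 GC boxes, of which 2 overlapped each other, and 1 TGACG, and the Klf6 window held 1 GC box and 4 CCAAT boxes. Among the 27025 mouse promoters of this length, 32.9% held GGGCGG, 51.3% CACCC, 17.9% TGACG, 34.5% CCAAT, 3.01% a MEF2 site and 1.40% a CArG box, the site of serum response factor. No window of the 5 members with an entry held a CArG box. Klf3 had 6 GC boxes and 5 CACCC, and Klf13 had 3 GC boxes, 1 CACCC, 1 TGACG and 2 CCAAT boxes, with 1 base shared by a GC box and a CACCC in each gene. A match describes these letters and is no measure of binding. Klf10 lies at chr15:38291463-38300706 on the minus strand. Klf3 at chr5:64803388-64832901 and Klf13 at chr7:63886351-63938915 each overlap 2 annotated genes, of which C230096K16Rik shares the strand of Klf3, so some of the counts of Klf3 could belong to its neighbour.

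Each member had its own place in naive BM. Klf4 was concentrated in monocytes, which gave 71.0% of its UMIs and 8.98% of all UMIs. Klf2 and Klf6 were spread over neutrophils, lymphocytes and monocytes, Klf3 was highest in the erythroid gate, and Klf13 was broad. Classes were ordered only where they held at least 100000 UMIs in a library, which left 19 classes in naive BM, 21 at D2 and 17 at D7. Within the naive library Klf2 was highest in mature B cells, at 911 CPM, followed by T cells (713 CPM) and immature B cells (702 CPM). Its level in Ly6c2-high monocytes of the same library was 194 CPM and in the erythroid gate 5.08 CPM. The plot of levels by class shows this wide range for Klf2 beside the narrower one of Klf13.

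Klf4 in Ly6c2-high monocytes stood at 362 CPM in naive BM, 256 CPM at D2 and 451 CPM at D7, and this gate was its highest class of those ordered in each library. At D2 the 40 Ly6c2-low monocytes lay within counting error of it, at 252 CPM (181 to 342). So did the monocytes outside the narrower gates at D7, at 395 CPM (323 to 477). Ly6c2-low monocytes lay under the limit in naive BM (22 cells) and at D7 (13 cells), and their Klf4 was higher there, at 476 and 602 CPM on 43 and 37 UMIs. Mature neutrophils gave it only 7, 2 and 15 UMIs in the 3 libraries, and the log2 difference of the monocytes over them was 6.69 (6.13 to 8.49) in naive BM, 7.36 (6.96 to 11.87) at D2 and 7.10 (6.90 to 8.46) at D7. In naive BM 60.6% of all genes tested lay at least 1 log2 unit apart between these classes, at D2 56% and at D7 59.4%, so a difference of 1 unit is common here. After thinning each cell to 1000 UMIs, Klf4 was detected in 24.9% of naive Ly6c2-high monocytes, 22.2% at D2 and 32.9% at D7, against 0.187%, 0.172% and 0.132% of mature neutrophils. Thinning left out 0, 1 and 1 of the monocytes and 102, 401 and 17 of the neutrophils, and without it the monocyte shares were 78.1%, 73.4% and 88.6%. Klf4 UMIs were thus rare in a class that made up a large part of every library.

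Klf10 was also high in monocytes, at lower counts than Klf4 and less confined to them. In naive BM monocytes gave 28.9% of the Klf10 UMIs, against 71.0% of those of Klf4. Klf10 reached 39.8 CPM in basophils and mast cells and 22.7 CPM in the erythroid gate, where Klf4 had 0 and 2.14 CPM. It stood at 58.0 CPM in naive Ly6c2-high monocytes and at 63.4 CPM in 41 monocytes that met none of the narrower monocyte gates, and the naive Ly6c2-high gate exceeded mature neutrophils by 2.79 log2 units (2.30 to 3.67). Over the 57 class and library units of whole BM the levels of Klf4 and Klf10 had a Pearson r of 0.54 on the log2 scale. These units share libraries and depth, so r is given as a description.

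Klf3, the CtBP-binding repressor, was highest among the ordered classes in the erythroid gate, at 257, 212 and 186 CPM in the naive, D2 CTX and D7 CTX libraries. The D2 value came from 31 UMIs, and its interval (144 to 300 CPM) held the 192 CPM of mature neutrophils. In naive BM the interval of T cells (179 to 265 CPM) reached that of the erythroid gate (241 to 274 CPM). The 4 immature B cells at D7 had 372 CPM on 3 UMIs (76.8 to 1088 CPM). The erythroid gate held 295 cells in naive BM, 40 at D2 and 13 at D7. Accordingly this gate gave 31.4% of the Klf3 UMIs in naive BM, 1.23% at D2 and 1.41% at D7. T cells (219 CPM) and mature B cells (128 CPM) came next among the ordered classes in naive BM, and macrophages, under the limit, had 203 CPM on 9 UMIs.

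Klf6 was highest in mature neutrophils in naive BM (448 CPM) and at D2 (659 CPM), and in basophils and mast cells at D7 (933 CPM). Klf13 stood at 306 CPM in naive small pre-B cells, 300.1 CPM in immature B cells and 290.4 CPM in Ly6c2-high monocytes, levels whose counting intervals overlapped. These 3 classes could thus not be ordered by Klf13. Among the ordered classes 2 of the 6 members, Klf3 and Klf4, had the same leading class in all 3 libraries of whole BM by their levels without regard to intervals. With each cell weighted equally 0 had.

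Along the neutrophil lineage the CPM of Klf2, Klf3, Klf6 and Klf13 was higher in mature than in pre-neutrophils in every library. Mature neutrophils were shallower, at a median of 2374 against 6486 UMIs per cell in naive BM. A higher CPM therefore does not mean more UMIs per cell. Without thinning, naive pre- and mature neutrophils with Klf2 were 63.1% and 59.9%, and with Klf13 53.3% and 33.6%. The shares rose for Klf3 (16.2% and 20.1%) and Klf6 (57.4% and 61.1%). Thinned to equal depth, the Klf2 shares were 22.0% and 34.4% and the Klf13 shares 12.9% and 17.1%. Klf2 stood at 110.3 CPM in cycling precursors, 209.8 in pre-neutrophils, 268 in immature and 460.5 CPM in mature neutrophils of naive BM. The corresponding D2 CTX levels were 155, 245, 463 and 787 CPM, and the D7 CTX levels were 221, 216, 304 and 433 CPM. The CPM of Klf2 was thus higher at each later stage in naive BM and at D2, while at D7 the first pair of stages did not differ beyond counting error. Klf3 stood at 21.9, 28.0, 50.1 and 98.7 CPM along the same 4 stages in naive BM and at 41.7, 50.2, 99.5 and 192 CPM at D2. Klf6 stood at 118, 142, 275 and 448 CPM in naive BM and at 194, 286, 372 and 659 CPM at D2. Klf13 had the shallowest slope, from 102 to 181 CPM in naive BM.

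**Figure D1:**
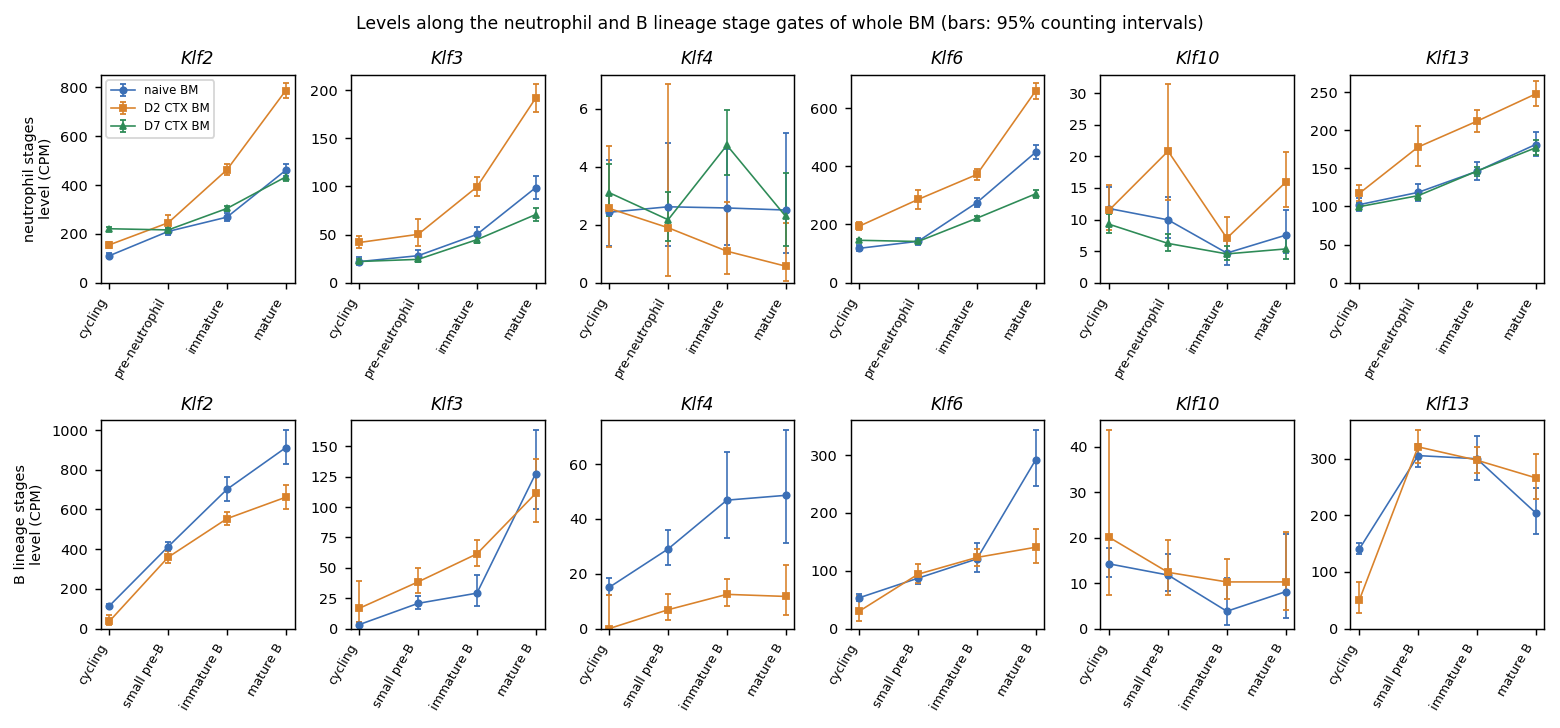
Levels (CPM, linear axes from 0) along 4 neutrophil stage gates in the naive, D2 CTX and D7 CTX libraries (top) and along 4 B lineage stage gates in the naive and D2 CTX libraries (bottom), with bars for 95% counting intervals. Klf2 ranges from 110.3 to 460.5 CPM along naive neutrophil stages and from 114 to 911 CPM along naive B lineage stages.

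The log2 ratio of mature over pre-neutrophils was 1.13 for Klf2, 1.78 for Klf3, 1.65 for Klf6 and 0.61 for Klf13 in naive BM. At least 1 log2 unit higher were 3 of these 4 members, against 26% of all genes in that direction in naive BM. At D2 and D7 the same count stood against 27.3% and 20.7% of all genes, with ratios of 1.68 and 1.001 for Klf2, 1.91 and 1.51 for Klf3, and 1.20 and 1.11 for Klf6. The median over all genes tested was 0.20, 0.45 and 0.16 log2 units in the naive, D2 CTX and D7 CTX libraries. Klf4 and Klf10 had too few neutrophil UMIs to be tested, and Klf4 did not exceed 4.74 CPM in any neutrophil stage.

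Mature neutrophils at D2 had higher levels of all 4 detected members than naive ones. Klf3 stood at 192 against 98.7 CPM (log2 0.95, 0.75 to 1.17), Klf2 at 787 against 460.5 CPM (0.77, 0.68 to 0.87), Klf6 at 659 against 448 CPM (0.56, 0.46 to 0.66) and Klf13 at 248 against 181 CPM (0.45, 0.29 to 0.61). The median of all genes in this comparison was also above zero, at 0.37, and none of the 4 reached 1 log2 unit, which 5.01% of all genes did. In D2 pre-neutrophils Klf6 was 1.004 log2 units (0.80 to 1.22) above naive, where 13.5% of all genes lay at least 1 unit apart. At D7 the order was different. Mature neutrophils then had lower Klf6 (305 CPM, log2 −0.55, −0.66 to −0.45) and lower Klf3 (70.8 CPM, −0.47, −0.70 to −0.26), while Klf2 (−0.09, −0.18 to 0.01) and Klf13 (−0.03) lay near the naive level. No member reached 1 log2 unit there, against 2.78% of all genes, whose median was −0.13. The D2 and D7 comparisons share the naive library.

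The earliest neutrophil gate differed from the mature one. Klf2 in cycling neutrophil precursors was 110.3 CPM in naive BM, 155 CPM at D2 and 221 CPM at D7. The D7 log2 ratio was 0.995 (0.87 to 1.13), just under the 1 log2 unit that 1.15% of all genes reached in either direction. Klf2 was therefore higher at D7 in the dividing precursors and close to the naive level in the mature cells.

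In the B lineage the CPM of Klf2 was lowest in the cycling gate and highest in mature B cells. It stood at 114 CPM in cycling B precursors, 413 in small pre-B, 702 in immature and 911 CPM in mature B cells of naive BM. At D2 the levels were 36.7, 359.6, 554 and 662 CPM, each below the naive level of the same stage (log2 −1.61, −2.65 to −0.79, in the cycling gate, then −0.20, −0.34 and −0.46). The D2 cycling gate held only 15 cells, against 501 in naive BM.

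Pooled over the whole B lineage the direction of Klf2 was opposite. It stood at 286 CPM in naive BM and 476 CPM at D2 (log2 0.73, 0.65 to 0.81), while every stage was lower. The gates held 940 small pre-B, 306 immature and 206 mature B cells in naive BM and 533, 816 and 256 at D2, so the later stages with higher Klf2 took a larger share at D2. Among the 5 members tested over the pooled lineage, Klf3 was at least 1 log2 unit higher at D2 (58.7 against 16.5 CPM, 1.77, 1.55 to 2.12) and Klf4 at least 1 unit lower (9.82 against 23.3 CPM, −1.17, −1.73 to −0.78), where 17.2% of all genes were that far apart and their median was 0.20. At D7 the pooled lineage had 178 CPM of Klf2 (−0.68), and small pre-B cells, 98 in number, had 408 CPM (−0.02).

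Klf4 within the B stages was lower at D2 in each of them. It stood at 15.1, 29.0, 46.9 and 48.6 CPM along the stages in naive BM and at 0, 6.86, 12.5 and 11.7 CPM at D2, where the 0 UMIs of the cycling gate allow up to 12.3 CPM. Klf3 had the reverse direction in the first stages, with 3.25, 20.7, 29.1 and 128 CPM in naive BM and 16.7, 38.4, 61.5 and 111 CPM at D2. Klf6 in mature B cells was 292 CPM in naive BM and 141 CPM at D2 (log2 −1.05, −1.44 to −0.67), while in immature B cells it was 120.3 and 123 CPM. Klf13 in small pre-B cells was 306 and 321 CPM, and in immature B cells 300.1 and 298 CPM, with little difference between the libraries.

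Ly6c2-high monocytes were gated on the summed monocyte genes Csf1r, Ly6c2, F13a1, Ccr2 and Ms4a6c with low azurophil and MHC class II genes. They counted 430 cells in naive BM, 109 at D2 and 622 at D7, with a median of 6662, 11590 and 7253.5 UMIs per cell. Between 2 and 7 cells per whole BM library lay within 20% above the gate's minimum. S100a8, a neutrophil-associated gene found at 171972 CPM in naive mature neutrophils, stood at 1605, 4262 and 2962 CPM in the monocyte gate of the 3 libraries, and its part in the results was not tested.

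**Figure D2:**
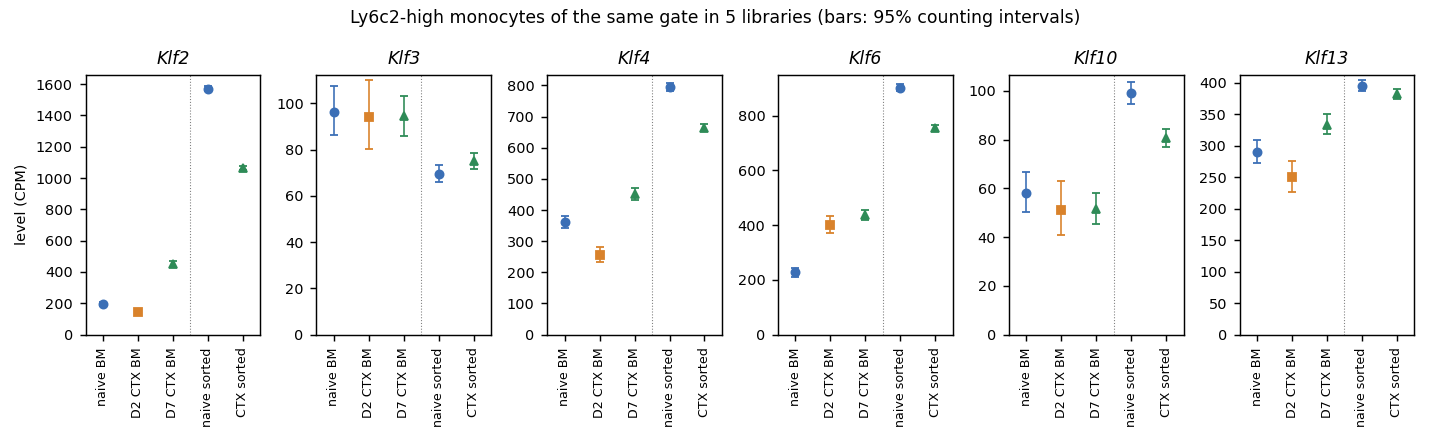
Level (CPM, linear axes from 0) of each Kruppel-like factor in Ly6c2-high monocytes of the same marker gate in the 3 whole BM libraries and, right of the dotted line, the 2 sorted libraries, with bars for 95% counting intervals. Klf2 stood at 194, 144 and 448 CPM in naive, D2 CTX and D7 CTX BM and at 1570.3 and 1066 CPM in the naive and CTX sorted libraries.

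At D7 the monocytes of whole BM had more Klf2 and Klf6 than naive ones. Klf2 stood at 194 CPM in naive BM, 144 CPM at D2 and 448 CPM at D7. The D7 library lay 2.30-fold above naive (log2 1.20, 1.08 to 1.33) and the D2 library below it (−0.43, −0.66 to −0.22, and −1.19 after subtraction of erythroid levels). The D2 erythroid level of Klf2 rested on 9 UMIs. After thinning to 1000 UMIs, Klf2 was detected in 19.3% (15.7 to 23.4) of naive, 19.4% (12.5 to 28.2) of D2 and 33.2% (29.5 to 37.0) of D7 cells of this gate. The D2 share rested on 21 of 108 cells. Its interval is too wide to decide whether the share of cells with Klf2 was lower at D2. Klf6 stood at 228 CPM in naive BM, 400.2 CPM at D2 and 437 CPM at D7. Both CTX libraries were higher, by 0.81 (0.66 to 0.97) at D2 and 0.94 (0.82 to 1.06) at D7. At D7 1 of the 6 members, Klf2, reached 1 log2 unit higher, against 0.299% of all genes in that direction, and the median of all genes was −0.02. At D2 none of the 6 reached 1 log2 unit in either direction, against 4.08% of all genes, whose median was 0.05.

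Klf4, the monocyte differentiation factor, stood at 362 CPM in naive Ly6c2-high monocytes, 256 CPM at D2 and 451 CPM at D7. It was lower at D2 (log2 −0.50, −0.66 to −0.34) and higher at D7 (0.32, 0.22 to 0.42). Klf13 had the same order at a smaller size, with 290.4, 251 and 333 CPM (−0.21, −0.38 to −0.05, and 0.20, 0.09 to 0.31), though its D2 value turned to 0.34 after subtraction of erythroid levels. The D2 erythroid level of Klf13 rested on 18 UMIs (72.8 to 194 CPM). Klf3 was near level, at 96.4, 94.3 and 94.4 CPM, with intervals of −0.31 to 0.25 at D2 and −0.24 to 0.18 at D7. Klf10 stood at 58.0, 51.1 and 51.4 CPM, and both of its intervals (−0.57 to 0.19 and −0.44 to 0.10) included zero.

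The immediate early genes, a list of primary response genes that includes Fos, Jun and Egr1, were counted in the same cells. At D7 13 of the 14 could be tested, 2 were at least 1 log2 unit higher and none lower, and their median was 0.44. Dusp1, a phosphatase of MAP kinases, was highest of these at 1.16, and Ier3 followed at 1.06. The lowest were Nr4a1 at −0.49 and Junb at −0.07. At D2 11 were tested, none was 1 unit higher, Jun was 1.06 units lower and their median was −0.13. The part of these genes in the members' values was not tested.

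Azurophil-high monocytes carry Mpo, Elane, Prtn3 and Ctsg, which the study uses as signature genes of neutrophil-like monocytes. They had lower CPM of each member than the Ly6c2-high gate in naive BM, at a median of 12221 against 6662 UMIs per cell. The azurophil-high gate held 30, 18 and 81 cells in naive, D2 CTX and D7 CTX BM. Klf2 stood at 82.5, 47.9 and 249 CPM there, and the D7 library lay 1.58 log2 units (1.05 to 2.18) above naive. Klf4 stood at 287, 162 and 304 CPM, and Klf6 at 117, 208 and 229.6 CPM. Against Ly6c2-high monocytes of naive BM the median of the 6 members was −1.03 and 3 were at least 1 log2 unit lower, where 10.9% of all genes were. At D7 3 of 6 were again that much lower, against 8.58% of all genes.

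**Figure D3:**
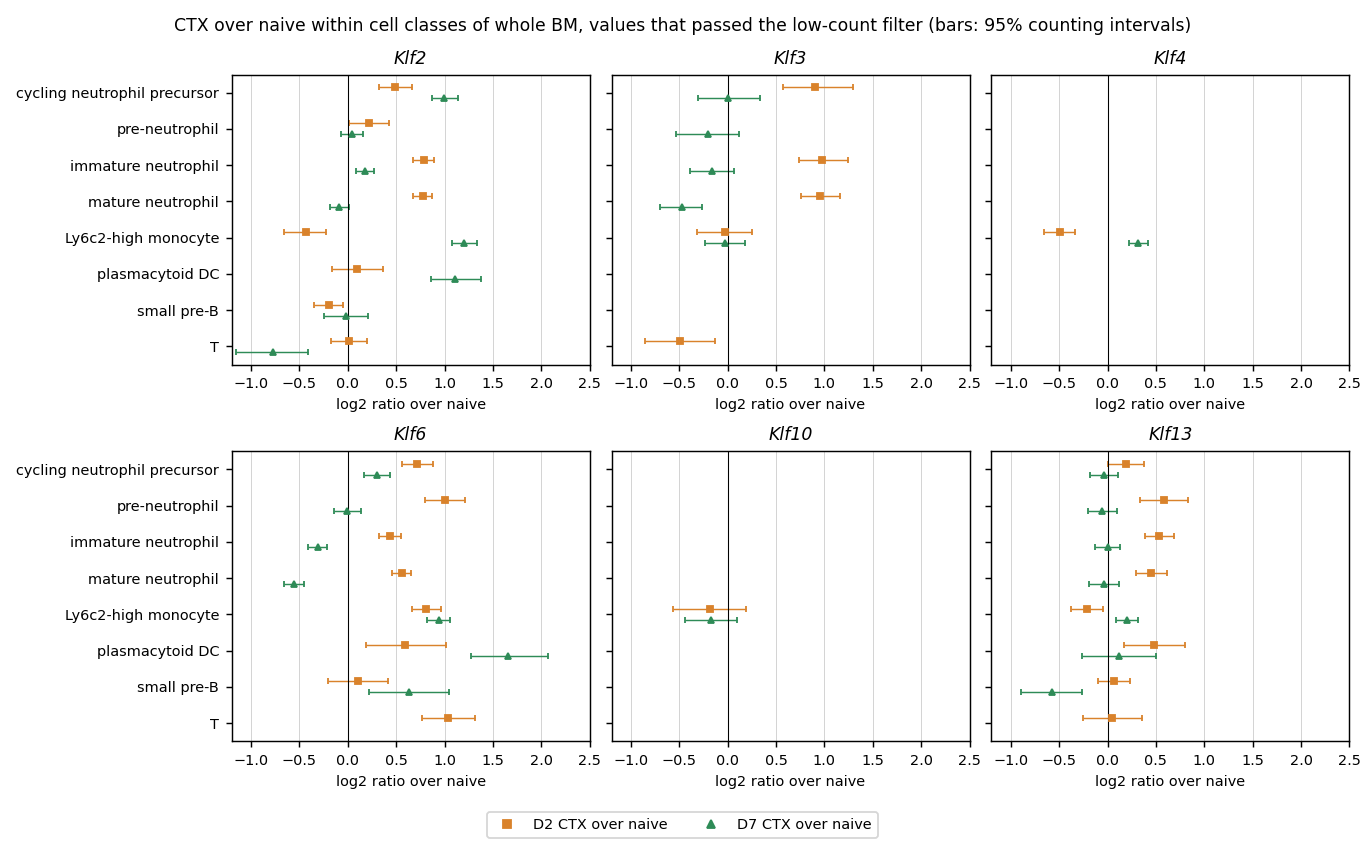
Log2 ratio of each CTX library over naive within 8 cell classes of whole BM (the 4 neutrophil stages, Ly6c2-high monocytes, plasmacytoid dendritic cells, small pre-B and T cells), for members that passed the low-count filter, with D2 and D7 drawn apart and bars for 95% counting intervals. Klf2 at D7 lay at 1.20 in Ly6c2-high monocytes, 1.11 in plasmacytoid dendritic cells, 0.995 in cycling neutrophil precursors and −0.09 in mature neutrophils.

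Plasmacytoid dendritic cells had a D7 pattern near that of the monocytes. Klf6 stood at 94.3, 142 and 299 CPM in naive, D2 CTX and D7 CTX BM, with D7 1.65 log2 units (1.27 to 2.07) above naive. Klf2 stood at 249.7, 268 and 541 CPM, and the D7 ratio was 1.11 (0.86 to 1.38). Thus 2 of the 3 members tested were at least 1 unit higher at D7, against 0.56% of all genes. Klf4 was at 20.4, 32.7 and 89.4 CPM in these cells, on counts too low for the filter.

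Klf6 was higher in further classes at D2. In basophils and mast cells it stood at 331 CPM in naive BM, 603 CPM at D2 (log2 0.86) and 933 CPM at D7 (1.49, 1.15 to 1.84). In T cells it stood at 284 CPM in naive BM and 584 CPM at D2 (1.04, 0.77 to 1.32), where 4.03% of all genes lay at least 1 unit apart. NK cells had 250.02 CPM (205 to 301) in naive BM, 459 CPM at D2 and 186 CPM (146 to 232) at D7, so the naive and D7 intervals overlapped. The D7 NK gate held 19 cells with a median of 21227 UMIs, against 62 cells and 4289 UMIs in naive BM. The D7 T gate held 20 cells, in which the NK receptor gene Ncr1 (690.5 CPM) exceeded Cd3e (211 CPM), so its label is weak and its 251 CPM of Klf6 is given as a value only.

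Progenitors with Mpo and Elane, and with monocyte genes under the minimum of the monocyte gates, had little Klf6 in naive BM. Klf6 stood there at 14.7 CPM, at 106 CPM at D2 (log2 2.77, 2.21 to 3.57) and at 43.8 CPM at D7. At D2 9.94% of all genes were at least 1 unit higher in this progenitor gate. The gate held 120, 55 and 339 cells in naive, D2 CTX and D7 CTX BM, at medians of 11795, 37129 and 9721 UMIs per cell. Its cells could carry monocyte genes below the minimum, and the part of these genes in the values was not tested. Klf2 in these progenitors was 9.78, 34.1 and 48.8 CPM, and Klf4 was 4.19, 43.5 and 9.87 CPM. The remaining progenitors with Kit or Cd34 had 89.1, 182 and 227 CPM of Klf6 and 23.6, 64.9 and 169 CPM of Klf2. Both genes were thus lowest in the naive library in both progenitor gates.

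In the sorted monocytes 5 of the 6 members were lower after CTX and Klf3 was not. Klf2 stood at 1541 CPM in the naive sorted library and 1009 CPM in the CTX sorted library (log2 −0.61, −0.63 to −0.59). Klf4 stood at 758 and 619.9 CPM (−0.29, −0.32 to −0.26), Klf6 at 887 and 711 CPM (−0.32, −0.35 to −0.29) and Klf10 at 94.8 and 75.5 CPM (−0.33, −0.42 to −0.24). Klf13 differed little, at 383 and 362 CPM (−0.08, −0.12 to −0.04), and the interval of Klf3, at 67.0 and 70.7 CPM, included zero (0.08, −0.02 to 0.18). None reached 1 log2 unit, which 0.955% of all genes did, and the median of all genes was 0.03. Thinned to 1000 UMIs per cell, which left out 21 naive and 17 CTX cells, Klf2 was detected in 72.4% of naive and 55.9% of CTX cells, and unthinned in 97.5% and 95.2%.

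The sorted cells were divided into gates by their azurophil gene level, and no developmental order was computed. The study reads sorted monocytes high in these genes as a separate subset, neutrophil-like monocytes. The azurophil-high gate held 63 naive and 170 CTX cells, the intermediate gate 266 and 460, the cycling low gate 259 and 388, and the non-cycling low gate 1253 and 1473. Klf2 was lower after CTX in each of them, at 1041 and 599 CPM in the azurophil-high gate (log2 −0.80, −0.90 to −0.70), 1331 and 869.6 CPM in the intermediate gate (−0.61), 1393 and 1034 CPM in the cycling low gate (−0.43) and 1739.9 and 1187 CPM in the non-cycling low gate (−0.55). Klf4 was lower by less in these 4 gates, with ratios of −0.14, −0.15, −0.19 and −0.30. Klf6 ratios were −0.37, −0.03, −0.08 and −0.40, so its difference was small in the intermediate and cycling low gates.

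**Figure D4:**
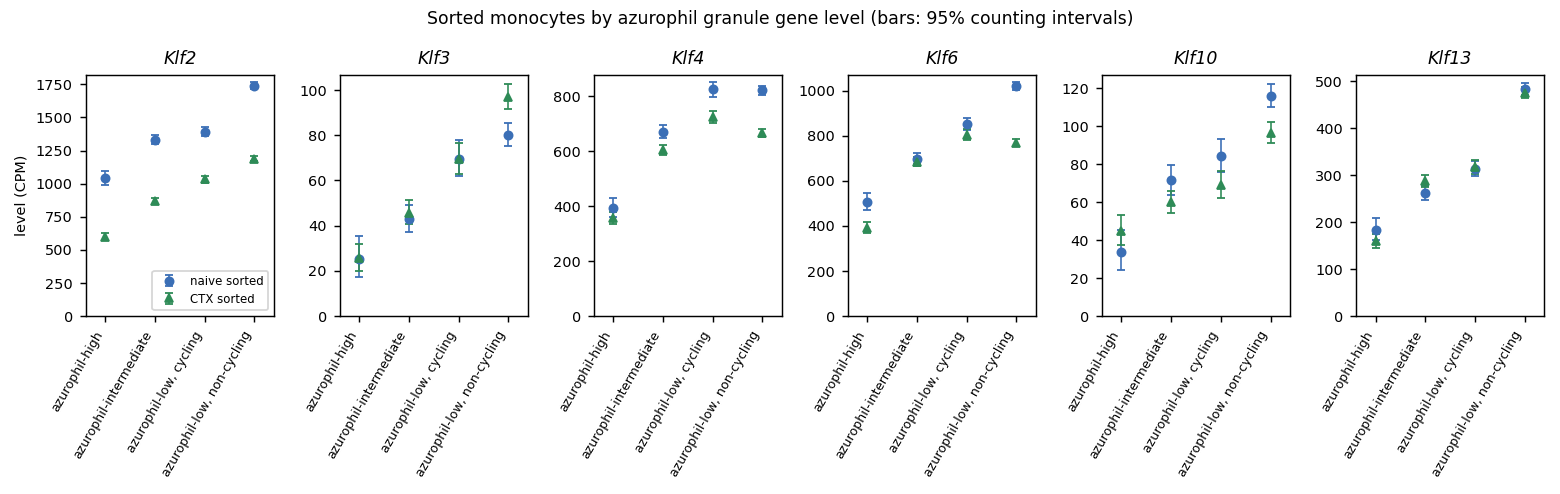
Level (CPM, linear axes from 0) of each Kruppel-like factor in 4 gates of the sorted monocytes ordered by azurophil granule gene level, in the naive sorted and CTX sorted libraries, with bars for 95% counting intervals. Klf2 in the CTX sorted library lies below the naive sorted library in all 4 gates, at 599 against 1041 CPM in the azurophil-high gate.

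The members also differed between these gates inside each sorted library. In the naive sorted library Klf13 stood at 184 CPM in the azurophil-high gate and 484 CPM in the non-cycling low gate, Klf10 at 33.7 and 116 CPM, and Klf3 at 25.3 and 80.2 CPM. All 6 had lower CPM in the azurophil-high than in the non-cycling low gate. The log2 ratios ran from −1.75 (Klf10) to −0.74 (Klf2) in the naive sorted library and from −1.88 (Klf3) to −0.91 (Klf4) in the CTX sorted library. The azurophil-high gate took cells with or without cycling genes and was deeper. Its median was 20369 against 9342 UMIs per cell in the naive and 17284.5 against 8595 in the CTX sorted library. A lower CPM therefore does not mean fewer UMIs of a member per cell. At least 1 unit lower were 5 of 6 in the naive and 3 of 6 in the CTX sorted library, against 16.9% and 16.2% of all genes, whose medians were −0.12 and −0.17. A separate gate of 29 naive and 66 CTX cells rich in neutrophil granule genes had 1 and 34 UMIs of Klf4, while its Klf2 stood at 1168 and 590.4 CPM.

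The same monocyte gate was then compared between sorted and unsorted BM. The gate took 1631 naive and 2086 CTX sorted cells. Klf2 stood at 1570.3 CPM in naive sorted and 194 CPM in naive whole BM, 8.05-fold apart (log2 3.01, 2.90 to 3.13). Klf6 was 1.98 (1.88 to 2.09) and Klf4 1.13 (1.05 to 1.22) log2 units higher in the sorted cells, Klf10 0.76, Klf13 0.44, and Klf3 −0.47 (−0.65 to −0.29). At least 1 unit higher were 3 of 6, against 2.42% of all genes, whose median was −0.04. For Klf2 the difference between the sorted and unsorted naive monocytes was thus larger than that between naive and CTX in either preparation.

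Immediate early genes stood apart in the same comparison. At least 1 log2 unit higher in the naive sorted cells were 13 of 14, with a median of 1.89, and Atf3, a stress-induced repressor, had 3.52 and Egr1 2.56. Between the CTX sorted and D7 CTX whole BM cells 6 of 14 were higher by 1 unit and Ier3 was 1.12 units lower, with a median of 0.74. Klf2 was 1.25 (1.19 to 1.31), Klf6 0.78, Klf10 0.64, Klf4 0.56, Klf13 0.20 and Klf3 −0.33 in that pair, so 1 of 6 was at least 1 unit higher, against 0.752% of all genes. Sorted and unsorted libraries also differ in their cell preparation, and the part of these genes in the Kruppel-like factor values was not tested.

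For the ratio of CTX over naive inside the shared gate, the 2 preparations gave opposite directions for Klf2, Klf4, Klf6 and Klf13. The share of all genes with opposite directions was not computed. The sorted cells of this gate had −0.56 (−0.58 to −0.53) for Klf2, −0.26 for Klf4, −0.26 for Klf6 and −0.05 for Klf13, and the D7 whole BM cells had 1.20, 0.94 for Klf6, 0.32 for Klf4 and 0.20 for Klf13. Of the immediate early genes 11 of 13 tested were above zero in the D7 whole BM cells. In the sorted libraries all 14 were tested, none was above zero, 3 were at least 1 unit lower and the median was −0.48, with Ier3 (−1.70) and Egr1 (−1.16) lowest.

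Summed over all kept cells of whole BM, Klf6 and Klf2 were higher after CTX at both times, except that Klf2 at D7 had a ratio of −0.17 when each cell was weighted equally. Klf6 stood at 141 CPM in naive BM, 275 CPM at D2 (log2 0.96, 0.92 to 1.01) and 203 CPM at D7 (0.52, 0.48 to 0.57). Klf2 stood at 195, 319 and 272 CPM (0.71, 0.67 to 0.75, and 0.48, 0.44 to 0.52). Klf4 was lower at D2 and higher at D7, at 44.4, 31.9 and 49.9 CPM. Klf3 stood at 66.4, 74.4 and 39.6 CPM, with a D7 ratio of −0.73 (−0.82 to −0.67). Klf13 stood at 165, 178 and 143 CPM, and Klf10, at 17.3, 18.4 and 11.5 CPM, was under the low-count filter.

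No member reached 1 log2 unit in whole BM, where 8.62% of all genes did at D2 and 23.7% at D7. The median of all genes was 0.17 at D2 and −0.58 at D7, and that of the 5 members tested was 0.16 and 0.17. These sums mix cell loss with the level per cell. The classes took other shares of the UMIs after CTX, since neutrophils held 34.4%, 35.9% and 75.6% and the B lineage 21.7%, 13.8% and 2.80% of all UMIs in the naive, D2 CTX and D7 CTX libraries.

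With every class held at its naive share of UMIs, the ratios at D2 were 0.35 for Klf2, 0.20 for Klf3, −0.59 for Klf4, 0.67 for Klf6, 0.18 for Klf10 and −0.01 for Klf13. At D7 they were 0.43, −0.24, 0.49, 0.41, −0.03 and −0.12. Klf3 at D7 went from −0.73 to −0.24 under this weighting, beside an erythroid share of UMIs that was 8.12% in naive BM and 0.30% at D7. Klf2 and Klf6 stayed above zero at both times.

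Other genes of the family and its pathways were counted in whole BM from fixed lists. Of 15 other KLF and Sp factors 6 could be tested at each time. Klf1, the erythroid factor of the family, was −2.64 at D2 and −4.11 at D7, Sp4 was −1.19 at D7, Klf7 was 0.93 at D2, and none was 1 unit higher. The medians of that list were 0.31 and −0.52. Of the lymphocyte trafficking genes linked to Klf2, S1pr1, the receptor for exit from lymphoid organs, was 1.10 and Ccr7 1.07 at D2, while Il7r was −0.86 at D2 and −2.40 at D7. All 5 were tested at D2 with 2 at least 1 unit higher and a median of 0.94, and 3 were tested at D7 with 1 lower and a median of −0.40.

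Inducers, partners and degraders of the family gave 9 of 12 tested genes at D2, none 1 unit apart, with Ctbp2 at 0.86 and Mef2a at 0.79 highest, Ctbp1 lowest at −0.38 and a median of 0.45. At D7 4 of 7 tested were at least 1 unit lower, with Foxo1, an activator of Klf2 in lymphocytes, at −2.91 and Mef2d at −1.77, and their median was −1.09. In Ly6c2-high monocytes at D7 none of 6 tested was 1 unit apart and the median was −0.06, and in the sorted cells none of 8, with a median of −0.01. Of 8 genes of the TGF-beta pathway around Klf10, 7 were tested at D2 and 6 at D7 with none 1 unit apart, and Skil (0.94) and Tgfbr2 (0.88) were highest at D2. The medians of that list were 0.57 and −0.48. Of the immediate early genes 4 of 14 tested were at least 1 unit higher at D2 and 2 of 13 at least 1 unit lower at D7.

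The genes with levels most like each member were read over the 57 class and library units of whole BM, as Pearson r of log2(CPM + 10) among 9440 genes. Klf2 was nearest to Ptprc (r = 0.86), which encodes the leukocyte antigen CD45, then Wipf1 (0.82) and Tbc1d1 (0.81). Klf4 was nearest to Ms4a4c (0.90), Ptpro (0.90) and Ifi211 (0.89). Klf6 was nearest to the myosin heavy chain gene Myh9 (0.84), Cdc42 (0.84) and Arhgap9 (0.82), and Klf13 to Rchy1 (0.77), Cytip (0.76) and Btg1 (0.76). Klf3 was nearest to Gucd1 (0.77), Picalm (0.76) and Arrb1 (0.75), and Klf10 to Stn1 (0.78), Elmo2 (0.77) and S100a4 (0.75). Among the members themselves Klf2 was nearest to Klf13 (0.65) and then Klf6 (0.55).

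Over the 11 units of the sorted libraries, with 5928 genes, the nearest gene of Klf2 was Tiparp (0.95), followed by Nfkbid and Tnfaip3, both feedback inhibitors of NF-kappaB signalling. Klf6 was nearest to Rel (0.98), an NF-kappaB subunit, Klf4 to Znrf2 (0.99), Klf3 to Ankrd44 (0.98), Klf10 to Cd2ap (0.996) and Klf13 to Cnppd1 (0.99). Such values come easily from few units that share 2 libraries and the same gates.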

How the data were processed

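Cells of 5 pooled libraries were profiled with the 10x Genomics 3′ V3 chemistry. The authors aligned reads to mm10 with Cell Ranger 3.1, and the deposited matrices hold raw counts of UMIs per gene and barcode. The study gives larger cell numbers than the barcodes analysed here. Cells with at least 200 genes and under 20% mitochondrial UMIs were kept, as in the study. Counts were summed per library and class and divided by the class total (CPM), so no model was fitted. Intervals were exact Poisson for levels, exact conditional for ratios and Clopper-Pearson for shares, at 95%, and cover counting error only.

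Genes were tested for a ratio of at least 1 log2 unit if they had 200 UMIs over both groups and 20 CPM in one, with 1 CPM added. Marker gates used UMIs per 10000, with minimums set after viewing marker levels and not Kruppel-like factor levels. Mixed-lineage cells were left out and no doublet caller was run. Named genes were the 6 members, the 2 highest and 2 lowest ratios of each list (some are left out above) and the 3 genes most like each member over units of at least 100000 UMIs. The members and lists were chosen with earlier results of these data known, including the opposite Klf2 directions in sorted and whole BM. Alternatives covered stricter cell filters (500 genes, 10% mitochondrial UMIs), a pseudocount of 0.1, no low-count filter, other scalings and gates 1.5 times stricter. For the monocytes the level of the B lineage or of the erythroid gate was also subtracted. Tables were built with pandas 2.3.3 and scipy 1.17.1 under Python 3.11.15 (numpy 2.4.6, plots by matplotlib 3.10.9), and the computation was tested on simulated data.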

Additional observations from a re-analysis of the deposited data

Results flagged for a closer look

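Between Ly6c2-high monocytes of whole BM at D7 and the sorted monocytes, the CTX over naive log2 ratios of 4 members had opposite signs, with counting intervals on either side of zero. The difference, whole BM minus sorted, was 1.81 for Klf2, 1.26 for Klf6, 0.61 for Klf4 and 0.28 for Klf13. Within whole BM, Ly6c2-high monocytes and mature neutrophils had opposite signs for Klf2 at D2 (monocytes minus neutrophils −1.21), for Klf13 at D2 (−0.66) and for Klf6 at D7 (1.49). At equal depth the share of these monocytes with Klf2 was 19.3% in naive BM and 19.4% at D2. The D2 value came from 21 of 108 cells, and its interval (12.5 to 28.2%) is too wide to decide whether the shares differed. None of these differences was tested, since each group was 1 pooled library.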

How the results depend on the processing

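No paired analysis was possible because each condition had 1 pooled library and no replicate numbers, and no library could be left out in turn for the same reason. Values here are medians of the log2 ratio over the 6 members unless a gene is named. At D2 the whole BM median was 0.13, and −0.032 when scaled by the median of gene ratios and 0.53 with each cell weighted equally. At D7 it was −0.02, and 0.41 without the 20 most abundant genes, 0.56 by gene ratios and −0.29 with equal cells, so its sign depends on the scaling. In Ly6c2-high monocytes it was −0.20 at D2 and 0.26 at D7, and 0.083 and 0.76 after subtraction of erythroid levels, an alternative chosen after seeing the data that leaves 5 members. The monocyte Klf2 ratio was −1.19 at D2 and 1.21 at D7 after that subtraction. The D2 erythroid levels rested on 40 cells, with 9 UMIs of Klf2 and 18 of Klf13. Among sorted cells the median was −0.30, and −0.27 without the azurophil-high, azurophil-intermediate, MHC class II and granule gates. The sign turned for Klf3 at D2 (−0.0038) and Klf13 at D2 (−0.061), for Klf13 (0.37) and Klf10 (0.035) at D7, all in whole BM by gene ratios, for Klf13 at D7 without the 20 most abundant genes (0.23), for Klf2 at D7 with equal cells (−0.17) and for Klf13 in D2 monocytes after erythroid subtraction (0.34). It also turned for Klf10 at D2 in whole BM by gene ratios (−0.080) and in D2 monocytes after erythroid subtraction (0.083), and for Klf3 in D2 monocytes with equal cells (0.16) or with Ly6c2-low cells added (0.041) and in D7 monocytes after B lineage subtraction (0.11), where the starting intervals included zero. Of 205 alternative values for single members, the other 193 kept their sign. Without the low-count filter 1192 in place of 536 genes lay 1 unit apart at D2, 2910 in place of 1329 at D7 and 140 in place of 53 in sorted cells. With equal cells 0 in place of 2 members had the same leading class in the 3 whole BM libraries. The 109 monocytes and 239 Klf2 UMIs at D2 limit precision there.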
